A study of Mus musculus with 4 samples.

Results

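The accessible regions described here lie at the ends of protein-coding genes and were called in every library of the series. Peaks of the 4 libraries were merged wherever they overlapped by at least 1 bp. A merged region became a member when it held a peak from all 4 libraries, was under 3000 bp wide, and touched the window of 1 kb either side of the first or last annotated base of a protein-coding gene on mm10. The members were therefore selected on measured values, namely the presence of a peak in each library and the merged width. The rule gave 14816 members, which was 2.64% of all 560228 merged regions and 16.8% of the 88231 regions with a peak in all 4 libraries. The other shared regions under 3000 bp were 32256 that lay inside a gene away from its ends and 40850 that touched no protein-coding gene.

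The series compared dDAVP, an analog of the hormone vasopressin that acts on the V2 receptor, with its vehicle. Both groups were mpkCCD cells of clone 11, an immortalized mouse line from the cortical collecting duct of the kidney and thus 1 clone, at passage 8 to 10. Before treatment every culture had been maintained with insulin, dexamethasone, triiodothyronine, epidermal growth factor, sodium selenite and transferrin, had been grown on permeable filters to confluence, and had been switched to medium free of serum and hormones. The dDAVP group (2 libraries) received 0.1 nM dDAVP and the vehicle group (2 libraries) received vehicle, each for 30 minutes, and each library was made by ATAC-seq from 50000 cells. ATAC-seq uses the transposase Tn5, which inserts sequencing adapters into DNA that is not wrapped in nucleosomes, and peaks mark where insertions concentrate. The deposited lists held 291454 and 205771 peaks in dDAVP libraries 1 and 2, against 393956 and 206972 in vehicle libraries 1 and 2. They gave positions without heights, so the read depth is unknown and the quantity measured per region and library is the number of bases that peaks covered there, called covered bases below. Nothing in the labels says that the 2 libraries of a group came from separate cultures, so p-values rest on the spread between these libraries, which may be technical. For tests of single regions, that spread is partly pooled over all shared regions. In a bulk library, a region open in fewer cells and a region less accessible in each cell cannot be told apart.

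The first base of a gene is its transcription start, and the promoter around it is where RNA polymerase II and general factors assemble. Active promoters are usually depleted of nucleosomes. Many mammalian promoters, above all those of genes used in most cell types, lie in CpG islands, which are stretches rich in GC and in the CpG dinucleotide that the rest of the genome has largely lost through methylation and deamination. Promoters with few CpGs are more often those of genes restricted to particular tissues, and these more often carry a TATA box. The far end of a gene, where transcripts are cleaved and polyadenylated, has no promoter of its own, although the end of a gene can lie beside the promoter of its neighbour or beside an enhancer.

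The promoter stretches below show the range of sequence that the members cover, from a CpG-island promoter to a promoter without a CpG. They are taken from RefSeq on GRCm38.p6 and read 5′ to 3′ on the strand of the gene, and apart from Aqp2, which was chosen by name, each was the widest member promoter with its motif or stood at an extreme. In the first 3, capitals mark CpG dinucleotides. Aqp2, the vasopressin-regulated water channel, is shown from base −200 to base −1 before its start (chr15:99578856-99579055, plus strand). Cdk11b, a kinase that acts in splicing, had the highest CpG ratio of all member promoters (chr4:155624704-155624853, plus strand), and 4931408C20Rik had no CpG in its whole promoter window (chr1:26687461-26687610, minus strand).
Aqp2: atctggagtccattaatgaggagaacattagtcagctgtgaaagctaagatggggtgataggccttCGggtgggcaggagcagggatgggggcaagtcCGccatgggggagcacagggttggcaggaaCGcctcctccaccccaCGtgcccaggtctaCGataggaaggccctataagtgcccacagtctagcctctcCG
Cdk11b: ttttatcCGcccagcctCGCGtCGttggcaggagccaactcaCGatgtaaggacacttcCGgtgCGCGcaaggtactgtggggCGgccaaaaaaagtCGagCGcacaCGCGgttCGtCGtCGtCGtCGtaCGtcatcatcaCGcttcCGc
4931408C20Rik: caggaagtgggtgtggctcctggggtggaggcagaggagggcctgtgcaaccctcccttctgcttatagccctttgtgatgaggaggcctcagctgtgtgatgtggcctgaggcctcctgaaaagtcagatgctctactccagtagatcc

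In the next 7, capitals mark a motif that a script searched for on both strands. Basp1, a membrane-attached signalling protein, carried the GC box GGGCGG (chr15:25413765-25413864, minus strand), with 2 of its 3 copies overlapping. Foxo1, a forkhead factor that insulin signalling keeps out of the nucleus, carried the CCAAT box, here on the opposite strand (chr3:52268237-52268336, plus strand). Misp3 carried the ETS core CCGGAA on the opposite strand (chr8:84011871-84011970, minus strand). Pdzd8, a lipid transfer protein of the endoplasmic reticulum, carried the full cAMP response element TGACGTCA (chr19:59345819-59345918, minus strand). Tpbg, a membrane glycoprotein, carried the AP-1 element TGACTCA (chr9:85842130-85842229, plus strand). Bad, a promoter of apoptosis, carried the YY1 core AAGATGG (chr19:6941761-6941860, plus strand). Zswim6 carried the TATA element TATAAA on the opposite strand (chr13:107890065-107890164, minus strand).
Basp1: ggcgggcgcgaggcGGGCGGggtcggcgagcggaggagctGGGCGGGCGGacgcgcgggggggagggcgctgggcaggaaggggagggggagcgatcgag
Foxo1: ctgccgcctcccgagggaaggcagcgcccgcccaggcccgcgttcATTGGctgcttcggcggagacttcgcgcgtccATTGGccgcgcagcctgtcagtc
Misp3: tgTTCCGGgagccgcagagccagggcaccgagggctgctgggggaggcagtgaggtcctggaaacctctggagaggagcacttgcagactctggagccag
Pdzd8: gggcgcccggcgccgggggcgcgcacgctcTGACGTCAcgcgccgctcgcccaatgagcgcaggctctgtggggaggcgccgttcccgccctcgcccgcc
Tpbg: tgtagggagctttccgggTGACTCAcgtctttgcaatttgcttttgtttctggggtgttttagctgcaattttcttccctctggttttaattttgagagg
Bad: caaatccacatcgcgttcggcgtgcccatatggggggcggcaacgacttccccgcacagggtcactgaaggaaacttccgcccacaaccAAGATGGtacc
Zswim6: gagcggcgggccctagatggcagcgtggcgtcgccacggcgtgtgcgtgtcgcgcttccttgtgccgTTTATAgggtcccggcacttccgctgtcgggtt

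Regions at gene ends were called in every library far more often than regions elsewhere. Of the 32230 merged regions that touched a gene end, 46.2% held a peak in all 4 libraries, against 13.4% of regions inside genes and 14.3% of regions outside genes. Because presence in all libraries chose the members, these shares are given as a description. A further 3122 gene-end regions were called in 3 libraries, and the missing library was dDAVP library 1 in 466 of them, dDAVP library 2 in 1274, vehicle library 1 in 243 and vehicle library 2 in 1139. The libraries with the shortest peak lists were thus the ones most often missing. Members held 5.45% and 7.70% of all peaks in the dDAVP libraries, against 4.01% and 7.68% in the vehicle libraries. They took a larger part of the covered length, 14.3% and 18.4% in the dDAVP libraries against 10.9% and 18.3% in the vehicle libraries.

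Members were also wider than shared regions of the other classes under the same width limit. Median covered bases of the members were 932 and 899 bp in the dDAVP libraries and 954 and 889.5 bp in the vehicle libraries. Inside genes the medians were 421 and 380 bp in the dDAVP libraries and 487 and 382 bp in the vehicle libraries. Outside genes they were 415 and 371 bp in the dDAVP libraries and 466 and 375 bp in the vehicle libraries. Every library thus had its members above both other classes, by 501 ± 23.3 bp over regions inside genes and by 512 ± 17.0 bp over regions outside genes (mean ± SD of the within-library difference, n = 4). Merged width entered the rule, and a wider region more readily touches the window at a gene end, so these differences are a description with no test. Between 41.5% and 46.3% of members were covered over more than 1000 bp in a library, against 9.37% to 14.8% of shared regions inside genes and 8.95% to 13.2% of those outside genes.

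**Figure D1:**
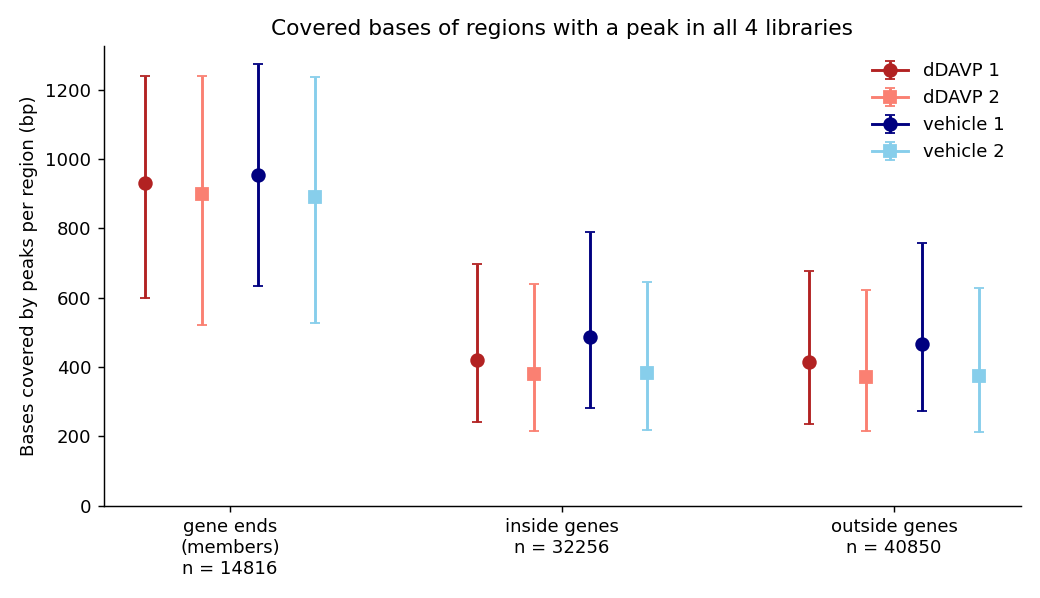
Covered bases per shared region (bp) for the members at gene ends and for shared regions inside and outside genes, by library; points are medians and bars run from the lower to the upper quartile over regions. In each of the 4 libraries the members' median (889.5 to 954 bp) lies above the medians of the other classes (371 to 487 bp).

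Most members were a single unbroken peak with well repeated edges. In 93.2% to 93.7% of members a library had exactly 1 peak. The share was nearly the same in shared regions inside genes (91.5% to 92.9%) and outside genes (91.5% to 92.6%). Exactly 1 peak in all 4 libraries was found in 12493 members (84.3%). For these, the edge of the peak differed by a median of 38 bp between dDAVP library 1 and vehicle library 1, and by 46 to 49 bp between the other 5 pairs of libraries. The stretch shared by a pair of libraries made up a median of 83.6% to 86.7% of their joint extent. Pairs of the same treatment (46 bp for dDAVP, 49 bp for vehicle) were no closer than pairs of different treatment (38 to 49 bp).

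The widest members belonged to genes of several kinds. Spaca6, a sperm protein needed for fusion with the egg, had the highest mean rank of covered bases (2867 and 2941 bp in the dDAVP libraries, 2892 and 2775 bp in the vehicle libraries). Its region (chr17:17826017-17828957) touched the window at the start of the gene but did not hold the start used for its promoter. The others were Basp1, Misp3, Efna5 (ephrin-A5, a ligand of Eph receptors), Atxn1 (a transcriptional corepressor), Hmga1 (an architectural chromatin protein) and the forkhead factor genes Foxo1 and Foxq1. The regions of Misp3 and Foxq1 differed little among libraries, with 2770 ± 5.91 bp and 2737 ± 11.7 bp (SD, n = 4), and that of Efna5 differed more, with 2845 ± 159 bp. At the other extreme, the member at Gon4l covered 89 and 73 bp in the dDAVP libraries and 80 and 91 bp in the vehicle libraries, and the members at Gm6818, Pcdhgb6, Zfp988 and Ttc21b averaged between 89.5 and 94 bp. Such a region meets the rule with a peak hardly longer than the shortest in any member, which was 72 bp in each library.

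The side of the gene mattered for position and width. Strand was available from the promoter table for 17492 of the 21887 protein-coding genes, and the strand of the others was not analysed here. Of the members, 8799 (59.4%) touched gene starts only, 1934 (13.1%) touched far ends only, 922 (6.22%) touched both, 2737 (18.5%) touched only genes without a listed strand, and the rest mixed these. Members at starts lay over the start itself in 85.3% of cases (7503 of 8799), whereas members at far ends lay over the last base of the gene in 13.0% (251 of 1934). Only 16 far-end members (0.827%) held any protein-coding start of the promoter table, alternative starts included, against 89.7% of start members.

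Far-end members were narrower than start members in every library. Their median covered bases were 476.5 and 420.5 bp in the dDAVP libraries and 546 and 419 bp in the vehicle libraries. Start members had medians of 1010 and 996 bp in the dDAVP libraries and 1019 and 980 bp in the vehicle libraries. The far-end median was lower in 4 of 4 libraries, with a difference of −536 ± 45.3 bp (SD, n = 4). Merged width entered the rule, and a wider region at a far end more readily touches a start as well. This difference is therefore a description with no test. The widths of far-end members were thus close to those of shared regions inside and outside genes given above.

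Peak coverage about the ends had a different shape for each kind of end. At CpG-rich starts inside members, 98.7% and 96.7% of starts lay under a peak in the dDAVP libraries and 99.3% and 96.9% in the vehicle libraries, and 500 bp downstream the shares were 64.3% and 62.5% against 65.2% and 61.7%. At 500 bp upstream they were 43.4% and 43.9% in the dDAVP libraries and 42.1% and 43.2% in the vehicle libraries. The coverage was therefore tilted into the gene. Around CpG-rich starts the merged region reached a median of 536 bp upstream and 681 bp downstream. Over all 9598 starts inside members it reached 494 bp upstream and 672 bp downstream, and further downstream than upstream in 66.5%. The start used was the one nearest the outermost annotated start of the gene. Alternative starts therefore lie mostly downstream of it, and their part in the tilt was not tested. Around far ends coverage dipped at the end itself, to 9.51% and 7.39% of ends in the dDAVP libraries and 11.0% and 8.17% in the vehicle libraries, and was 25.4% to 36.6% at 1000 bp upstream and 22.1% to 27.8% at 1000 bp downstream. The starts shown were taken because they lay inside a member, so high coverage at the start follows from that choice. A far end was taken for a member within 1 kb, so the fall beyond that distance comes from the rule, and the shapes at starts and at far ends are not a tested contrast.

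**Figure D2:**
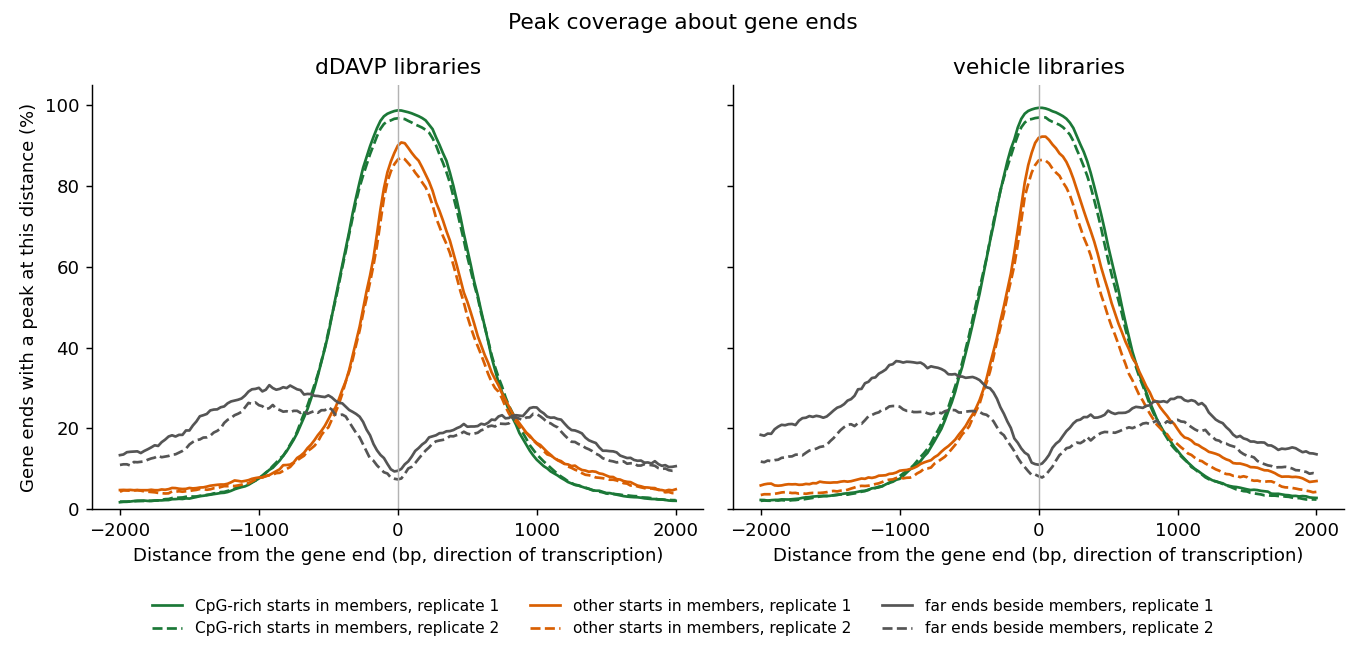
Share of gene ends (%) under a peak at each distance (bp, negative before the end in the direction of transcription), for 6902 CpG-rich starts inside members, 2696 other starts inside members and 1934 far-end members (1 end each); dDAVP libraries are on the left and vehicle libraries on the right, with replicate 2 dashed. Coverage is 86.3% to 99.3% at starts, which were chosen for lying inside a member, and 7.39% to 11.0% at far ends, which were chosen for a member within 1 kb.

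Promoter sequence was not used by the rule, and it separated starts inside members from other starts. Each of the 17492 genes with a promoter was given the window from 250 bases before to 50 bases after its start. A window is called CpG-rich here where GC exceeded 50% and the observed over expected CpG ratio exceeded 0.6. The start of 9598 promoters lay inside a member, and 71.9% of these were CpG-rich (exact binomial 95% interval 71.0% to 72.8%, counting error only), against 13.4% (12.7% to 14.2%) of the other 7894. The median CpG ratio was 0.779 for starts inside members and 0.222 for the others, and the median GC content was 61.7% against 48.0%. Genes are not independent replicates, so no test is given. Of those other starts, 715 (65.7% CpG-rich) lay in regions called in all 4 libraries that were not members by width or position, and the remaining 7179 were CpG-rich in 8.19%.

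Read the other way, 86.7% of 7960 CpG-rich starts and 28.3% of 9532 other starts lay inside a member. The share climbed through the range of CpG ratios, being 7.56% for ratios below 0.1, 46.1% for ratios of 0.4 to 0.5 and 90.4% for ratios of 1 or more. Only 3.35% of CpG-rich starts lay under no peak of any library, against 58.0% of other starts. Promoters called in fewer libraries took intermediate values: 29.8% were CpG-rich where the region was called in 3 libraries, 19.6% in 2, 17.6% in 1, and 4.61% where no library had a peak.

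**Figure D3:**
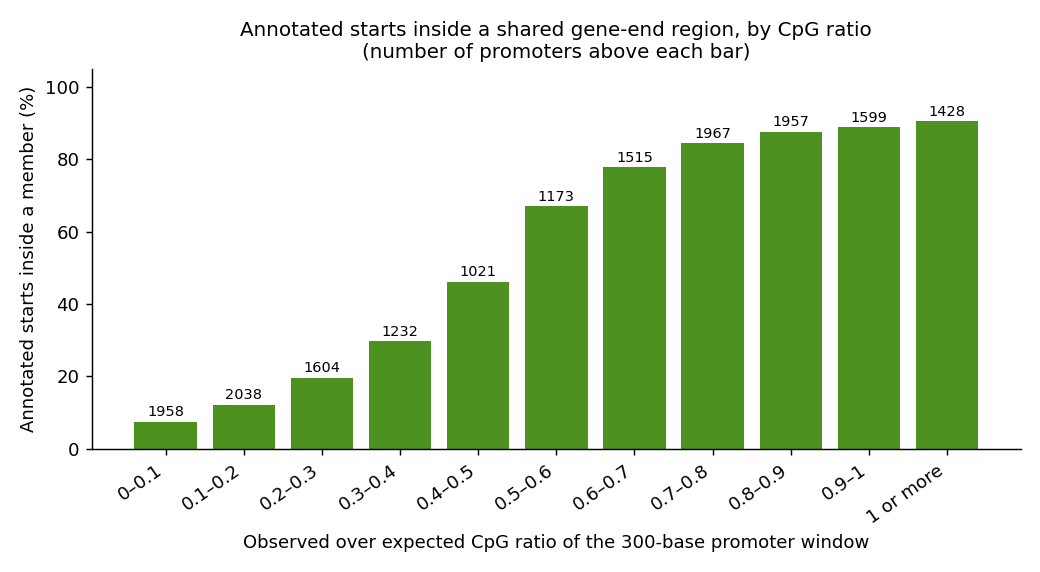
Share of annotated starts inside a member (%) by the observed over expected CpG ratio of the promoter window, with the number of promoters above each bar. The share is 7.56% in the lowest bin and 90.4% in the highest.

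CpG-rich starts also lay in wider members. Their members had median covered bases of 1109 and 1111.5 bp in the dDAVP libraries and 1113.5 and 1108 bp in the vehicle libraries. Members of the other starts had 847 and 810.5 bp in the dDAVP libraries and 891.5 and 816 bp in the vehicle libraries. The difference was 269 ± 35.6 bp (SD, n = 4) and had the same sign in 4 of 4 libraries. Merged width entered the rule, a wider region more readily holds a start, and each library measured the same regions. This difference is therefore a description with no test. Aqp2 belonged to the CpG-poor kind, with a ratio of 0.361, and so did the epithelial factor gene Elf3 with 0.460, whereas Cebpb, a bZIP factor gene, had a ratio of 1.03.

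Short sequence motifs of promoter-binding factors differed in frequency between starts inside members and other starts. A match is a description of the letters and not a binding site, and both strands were searched for each of 12 motifs over the 300 bases of the window. The GC box, bound by Sp1 and its relatives, was present in 68.1% of promoters with the start inside a member and 19.9% of the others (46.3% of all promoters). The ETS core was present in 28.8% and 7.26% (19.1% of all). The full cAMP response element, the site of CREB proteins that protein kinase A activates, was present in 3.41% and 1.01% (2.33% of all). The E-box CACGTG was present in 10.4% and 4.84% (7.91% of all), and AACCGG, part of the motif of Grainyhead-like factors, in 11.4% and 3.79% (7.99% of all).

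Other motifs were rarer at starts inside members. TATAAA was present in 6.83% of promoters with the start inside a member and 21.3% of the others (13.3% of all). AGATAA, the GATA factor core, was present in 5.21% and 15.7% (9.94% of all), and TGACTCA, the AP-1 element, in 3.30% and 6.09% (4.56% of all). The CCAAT box was about equally frequent, in 39.0% and 39.5% (39.2% of all).

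Most of these contrasts were smaller within promoters of 1 CpG class, a split added after the first values were seen. Among CpG-rich promoters, the GC box was found in 77.9% of starts inside members and 70.5% of other starts, the cAMP response element in 4.03% and 3.12%, and TATAAA in 4.68% and 5.48%. The ETS core kept a wider gap there, with 33.1% of starts inside members and 19.9% of other starts. Of the CpG-rich starts outside members, 470 of 1058 lay in regions shared by all libraries, and among the other 588 the GC box was found in 66.3%, the cAMP response element in 2.55%, TATAAA in 5.44% and the ETS core in 11.2%. Among the remaining promoters, the GC box was found in 42.9% and 12.0%, the cAMP response element in 1.82% and 0.688%, the ETS core in 17.9% and 5.30%, and TATAAA in 12.4% and 23.7%. AP-1 differed little in either class, with 2.19% and 2.55% in CpG-rich promoters and 6.16% and 6.64% in the others. The YY1 core AAGATGG lay in 7.24% and 5.27% of promoters (6.35% of all), and 41.1% of its matches in promoters of members fell from the start to base 50 after it, against 21.6% in the other promoters and 15.0% of the possible positions.

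Many members touched the ends of more than 1 gene. The windows of 2 genes were touched by 2105 members (14.2%) and those of 3 genes by 62. Among the 8805 members that held at least 1 start of a gene with a promoter, 612 (6.95%) held a divergent pair, that is, 2 starts on opposite strands that point away from each other. The starts of a pair were a median of 153 bp apart. Divergent pairs are common in mammalian genomes and let 1 nucleosome-free stretch serve both genes.

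Members with a divergent pair were wider than members with 1 start. Their medians were 1201 and 1211 bp in the dDAVP libraries and 1193.5 and 1205 bp in the vehicle libraries. Members with 1 start had medians of 1020.5 and 1008 bp in the dDAVP libraries and 1033 and 996 bp in the vehicle libraries. The difference was 188 ± 22.2 bp (SD, n = 4) and positive in 4 of 4 libraries. A region must be long enough to hold both starts to count as a pair, so width enters the grouping and no test is given. Restricted to CpG-rich promoters, a restriction added after the first value was seen, the difference was 108 ± 17.2 bp over 493 pairs and 5574 members with 1 start, again positive in all 4 libraries.

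The widest members with 2 or more starts included well-known neighbours. The region of Hnrnpa2b1 and Cbx3, genes of an RNA-binding protein and of heterochromatin protein 1 gamma whose human promoter pair is used in vectors as an element that resists silencing, covered 2362 and 2337 bp in the dDAVP libraries and 2337 and 2342 bp in the vehicle libraries. Its starts lie 722 bp apart. The region of Zbtb25 and Zbtb1, a pair of zinc finger genes with starts 960 bp apart, covered 2483 and 2514 bp in the dDAVP libraries and 2473 and 2488 bp in the vehicle libraries. In both regions the values of the groups overlapped. The other 3 regions were those of Trim46 and Krtcap2, of Cdc42se1 and Mllt11, and of Atp6v1a (the catalytic subunit of the proton pump that acidifies vesicles) with Naa50.

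The member that touched most genes lay at the shared end of the Ugt1a cluster (chr1:88220401-88220895), whose 7 listed genes (Ugt1a1, Ugt1a10, Ugt1a2, Ugt1a5, Ugt1a6a, Ugt1a7c and Ugt1a9) encode enzymes that couple glucuronic acid to small molecules and use the same last exons. It covered 391 and 476 bp in the dDAVP libraries and 394 and 410 bp in the vehicle libraries. A member of 1941 bp on chromosome 17 touched the windows of 5 genes (Frs3, Gm20517, Prickle4, Tomm6 and Usp49), and 1 of 818 bp touched 4 (Eme2, Mapk8ip3, Mrps34 and Nme3). The histone genes H2ac20, H2ac21 and H2bc21 shared a member with 2056 ± 207 covered bases (SD, n = 4).

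Some far-end members were as wide as promoters. The widest was at the far end of Midn, the gene of a nuclear protein that delivers other proteins to the proteasome (chr10:80159319-80161815), with 2482 and 2465 bp in the dDAVP libraries and 2401 and 2371 bp in the vehicle libraries. The next touched the far ends of both Bad and Plcb3, a phospholipase (chr19:6950600-6953094), with 2361 and 2495 bp in the dDAVP libraries and 2020 and 2454 bp in the vehicle libraries. The others were at Csad (an enzyme of taurine synthesis, 2336 ± 411 bp), Speer4c (2202 ± 16.7 bp), Itln1 (an intelectin, 2234 ± 229 bp) and LOC108167320 (2164 ± 99.6 bp). Long noncoding RNA genes ended near some of these regions more rarely than near starts: an end of such a gene lay within 1 kb of 4.29% of far-end members and 13.3% of start members, against 3.19% of shared regions inside genes and 5.64% of those outside genes.

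Of the 21887 protein-coding genes, 14000 had a member, which sets the background at 64%. Another 61 genes (0.279%) had no member but a region shared by all libraries that was 3000 bp or wider, and at 4203 (19.2%) not a single library had a peak near an end. Where strand was listed, 8242 genes (47.1%) had a member at the start only, 612 (3.50%) at the far end only and 2423 (13.9%) at both, 512 of these through a single member that touched both windows.

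Gene families whose products every cell uses had members at nearly all loci. The share was 13 of 13 for subunits of RNA polymerase II, 76 of 78 for mitochondrial ribosomal proteins, 36 of 37 for subunits of respiratory complex I, 27 of 28 for mediator subunits, 37 of 39 for proteasome subunits, 49 of 52 for translation initiation factors and 79 of 84 for cytosolic ribosomal proteins. Their promoters were mostly CpG-rich, from 65.6% for the proteasome to 80.0% for RNA polymerase II, against 45.5% of all promoters. The median covered bases of these families lay between 837.75 bp for mitochondrial ribosomal proteins and 1137.25 bp for initiation factors, against 913.25 bp for all members, on both sides of that value. Outside these ranges, DEAD-box RNA helicase genes had members at 33 of 37 loci (89.2%), with 87.9% CpG-rich promoters. Zinc finger genes named Zfp had members at 326 of 394 loci with 46.2% CpG-rich promoters, and Hox genes at 34 of 39.

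Sensory receptor and defensin families, whose genes are expressed in few tissues, were at the other extreme. Olfactory receptor genes had members at 51 of 1110 loci (4.59%), vomeronasal receptor genes at 12 of 355 (3.38%) and defensin genes at 3 of 70 (4.29%), against the background of 64%. CpG-rich promoters numbered 0 of 944, 1 of 323 and 0 of 45 in these families. Their few members were narrow, with medians of 467.25, 401.125 and 445.75 bp, although the vomeronasal gene Vmn1r48 had 2412 and 2405 bp in the dDAVP libraries and 2346 and 2719 bp in the vehicle libraries. Cytochrome P450 genes had members at 34 of 93 loci. Keratin-associated protein genes, which encode hair proteins, had a member at 34 of 56 loci (60.7%), with 0 of 51 listed promoters CpG-rich. Their members were narrow, with a median of 381.75 bp.

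**Figure D4:**
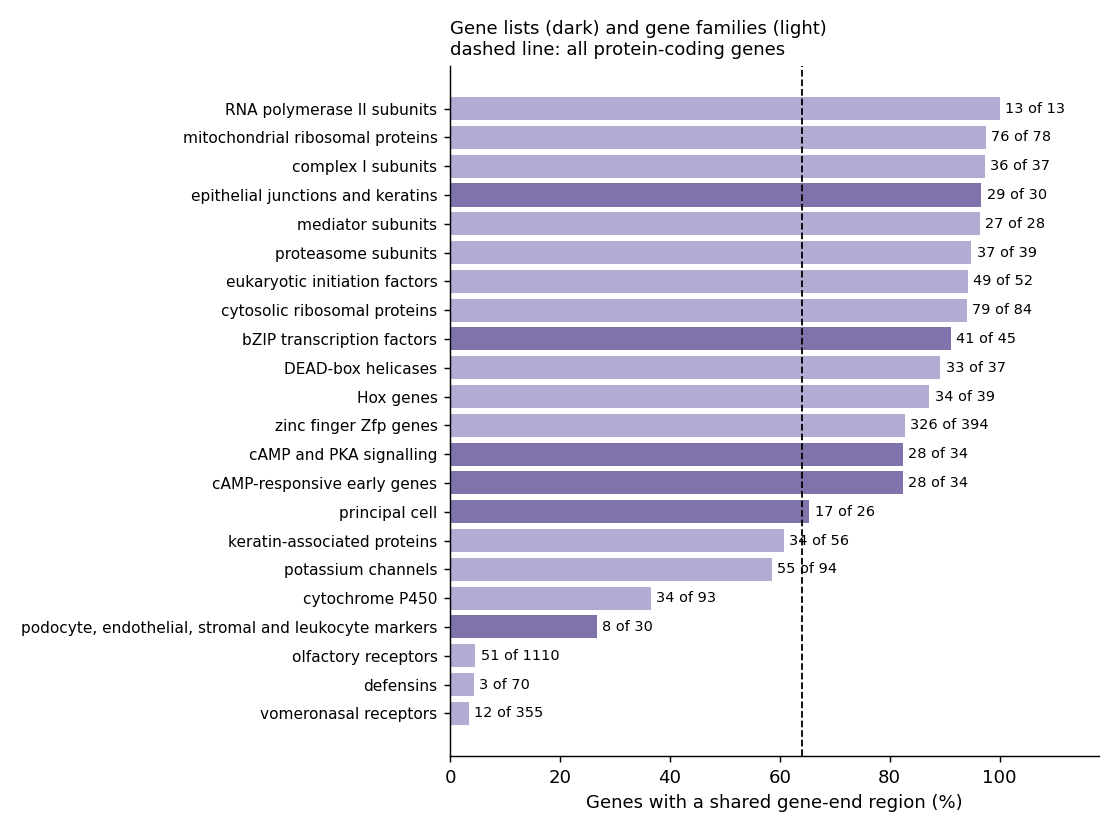
Share of genes with a member (%) in each gene list and family, with the counts beside the bars and the share of all protein-coding genes (64%) as a dashed line. The families of RNA polymerase II, mediator, the proteasome, complex I, initiation factors and both kinds of ribosomal proteins lie between 94.0% and 100%. DEAD-box helicases lie at 89.2%, and the sensory receptor and defensin families between 3.38% and 4.59%.

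Lists of genes tied to this cell type and to its hormone differed among themselves. Of 26 genes of principal cells, the vasopressin-responsive cells of the collecting duct, 17 (65.4%) had a member, which is near the background. Those with a member included Aqp2, St6gal1 (a sialyltransferase) and the transcription factor genes Gata3, Elf3, Grhl2 and Hoxb7. Those without included the water channel gene Aqp3, where no gene-end region was called in more than 1 library. They also included the V2 receptor gene Avpr2, where no gene-end region was called in more than 2 libraries. Only 4 of the 17 principal cell promoters in the table were CpG-rich (23.5%). Genes of epithelial junctions and keratins had members at 29 of 30 loci with a median of 1658.5 bp, and markers of podocytes, endothelium, stroma and leukocytes had members at 8 of 30 with a median of 1003 bp. In that list Flt1, Col1a1 and Wt1 had the widest. CpG-rich promoters made up 52.9% of those listed for the junction and keratin genes and 13.3% for the markers, against 45.5% of all promoters. Within the principal cell list, Aqp2 and Gata3 thus had members, and Avpr2, Aqp3 and Aqp4 had none. Aqp4 was among the 4 of those 26 genes without a gene-end peak in any library. The keratin gene Krt8, from the epithelial list, had a member.

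Genes of the cAMP pathway, through which the V2 receptor signals, had members at 28 of 34 loci (82.4%, against the background of 64%) with a median of 1273 bp. The widest was a region at the far end of Prkaca, the catalytic subunit alpha of protein kinase A, that also touched an end of the neighbouring gene Samd1 (2166 and 2195 bp in the dDAVP libraries, 2149 and 2205 bp in the vehicle libraries). It was followed by the regions at the starts of the coactivator genes Crebbp and Ep300. Early genes that respond to cAMP had members at 28 of 34 loci, and bZIP factor genes at 41 of 45. The width limit kept Fos and Jun, both AP-1 subunits, out of the members, since each had a region in all 4 libraries that reached 3000 bp or more. Klf10, a zinc finger factor, had the widest member of the early genes (2695 and 2682 bp in the dDAVP libraries, 2687 and 2675 bp in the vehicle libraries).

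The first treatment question is whether 30 minutes of dDAVP changed the width of members. The limma test on log2 covered bases over all 87922 shared regions, after quantile normalization, called 0 members and 0% of all shared regions at a Benjamini-Hochberg adjusted p of 0.05, and the smallest adjusted p was 0.871. At an unadjusted p under 0.05 there were 319 members (2.15%), against 5.27% of all shared regions. The median log2 difference over members was 0.05 with quartiles of −0.10 and 0.19, and the median standard error of a member was 0.32. limma moderated the variance of each region toward a value pooled over all shared regions, with no trend by width. The standard error of a steady member is therefore largely that pooled value. Misp3, for example, had a standard error of 0.28 although its covered bases ran only from 2766 to 2779 bp. The share of members at an unadjusted p under 0.05 also depends on this pooling. With quantile normalization 61.7% of members had a positive difference, and without normalization 49.4% did, so no overall direction is given.

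Counts of members whose groups did not overlap were close to those of all shared regions. Covered bases were higher in both dDAVP libraries than in both vehicle libraries at 2163 members (14.6%), where the background over all shared regions was 12.9%. They were lower in both dDAVP libraries at 2170 members (14.6%), where the background was 17.5%. A log2 difference beyond 1 in either direction was found at 778 members (5.25%) and 12.6% of all shared regions. Leaving out 1 library moved that count of 778 to 1433 without dDAVP library 1, 1480 without dDAVP library 2, 1262 without vehicle library 1 and 1609 without vehicle library 2, with members chosen anew from the other 3.

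The differences between groups were concentrated in narrow members. When the members were ranked by covered bases and cut into 4 equal groups, 14.2% of the narrowest group had a log2 difference beyond 1 and the median SD over the 4 libraries was 0.56 on the log2 scale. In the next 3 groups, from narrower to wider, the share was 5.18%, 1.59% and 0%, and the median SD was 0.25, 0.16 and 0.11. The share beyond 1 was 14.3% for far-end members and 3.11% for start members, and 1.19% for members with a CpG-rich start. Members with another start had a share of 4.81%. Width enters both the ranking and the differences, so this is a description of where the spread lies.

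The numbers of peaks and of covered bases summed over members did not separate the groups. Members held 15875 and 15835 peaks in the dDAVP libraries and 15783 and 15903 in the vehicle libraries, a difference of 12 between group means (exact two-sided permutation p = 1, where 0.333 is the smallest that 2 against 2 libraries allow). Covered length was 14.0 and 13.6 Mb in the dDAVP libraries and 14.5 and 13.6 Mb in the vehicle libraries, a difference of −0.249 Mb (exact permutation p = 1). Both differences changed sign without vehicle library 1, to −112 peaks and 0.216 Mb. Vehicle library 1 had the longest peak list and the greatest covered length, which moves with these sums, and the part of library depth in them was not tested.

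The members with the strongest separation between groups were listed by a rule on the limma statistic, and none passed the adjusted threshold. The next values are a description of the extremes of 14816 regions. At Rbpms2, an RNA-binding protein gene, a member at the far end (chr9:65660924-65661464) covered 378 and 338 bp in the dDAVP libraries against 86 and 77 bp in the vehicle libraries, a log2 difference of 2.21 ± 0.28 (SE; limma adjusted p = 0.871). At the far end of Dnm1l, which encodes a protein of mitochondrial fission, the values were 503 and 500 bp in the dDAVP libraries against 140 and 100 bp in the vehicle libraries. The remaining members on this side were at Synrg, at Eef1d with Naprt, at Ehd1 (a protein of endocytic recycling) and at Trpm8 (a cold-sensing channel), with log2 differences of 1.61 to 2.20 and the same adjusted p of 0.871.

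Members narrower in dDAVP were of the same kind. At the far end of Srsf3, a splicing factor gene, the member covered 127 and 93 bp in the dDAVP libraries against 685 and 747 bp in the vehicle libraries, a log2 difference of −2.64 ± 0.33 (SE; limma adjusted p = 0.871). At the far end of Foxa2, a forkhead factor gene (chr2:148043570-148045325), it covered 371 and 305 bp in the dDAVP libraries against 1755 and 1256 bp in the vehicle libraries, with a log2 difference of −2.08 ± 0.31 (SE; limma adjusted p = 0.871). The others were at Gm5544, Sez6l, Olfr1415 and Mgrn1, with log2 differences of −2.62 to −2.05. By the choice of these 12 members the 2 groups did not overlap, and by the rule each library had a peak there, so what differed was the length called.

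Genes of the vasopressin and cAMP response, chosen by name, showed smaller differences. The members above were chosen as extremes, so this contrast follows largely from that choice. The Aqp2 member (chr15:99577682-99579491) covered 991 and 1187 bp in the dDAVP libraries and 1164 and 1022 bp in the vehicle libraries, in 1 and 2 peaks in the dDAVP libraries and 3 and 2 peaks in the vehicle libraries. The groups overlapped, and the log2 difference was 0.03 ± 0.30 (SE; limma adjusted p = 1.000). Gata3 had 1745 and 1380 bp in the dDAVP libraries and 1431 and 925 bp in the vehicle libraries, also overlapping. Nr4a1, an early gene of the nuclear receptor family, and Per1, a clock gene, overlapped as well. The members given here for Gata3, Nr4a1 and Per1 touched the window at the start but did not hold the start used for the promoter.

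Sik1, a kinase gene that cAMP induces, had 1966 and 1942 bp in the dDAVP libraries against 1843 and 1552 bp in the vehicle libraries, higher in both dDAVP libraries. Crem, a gene of the cAMP response element modulator, had 1302 and 1383 bp in the dDAVP libraries against 1393 and 1468 bp in the vehicle libraries, lower in both dDAVP libraries. Neither difference passed the test, with log2 differences of 0.24 ± 0.28 and −0.05 ± 0.29 (SE; limma adjusted p = 1.000 for both). Members with a full cAMP response element in a promoter numbered 302, of which 0 were called. Covered bases were higher in both dDAVP libraries at 51 of them (16.9%) and lower in both at 34 (11.3%), beside 14.6% and 14.6% of all members. A similar split was seen in members with a CpG-rich start (16.6% higher and 12.7% lower) and in members with the YY1 core (17.8% and 10.4%). Their median log2 difference was 0.06, against 0.05 for all members.

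**Figure D5:**
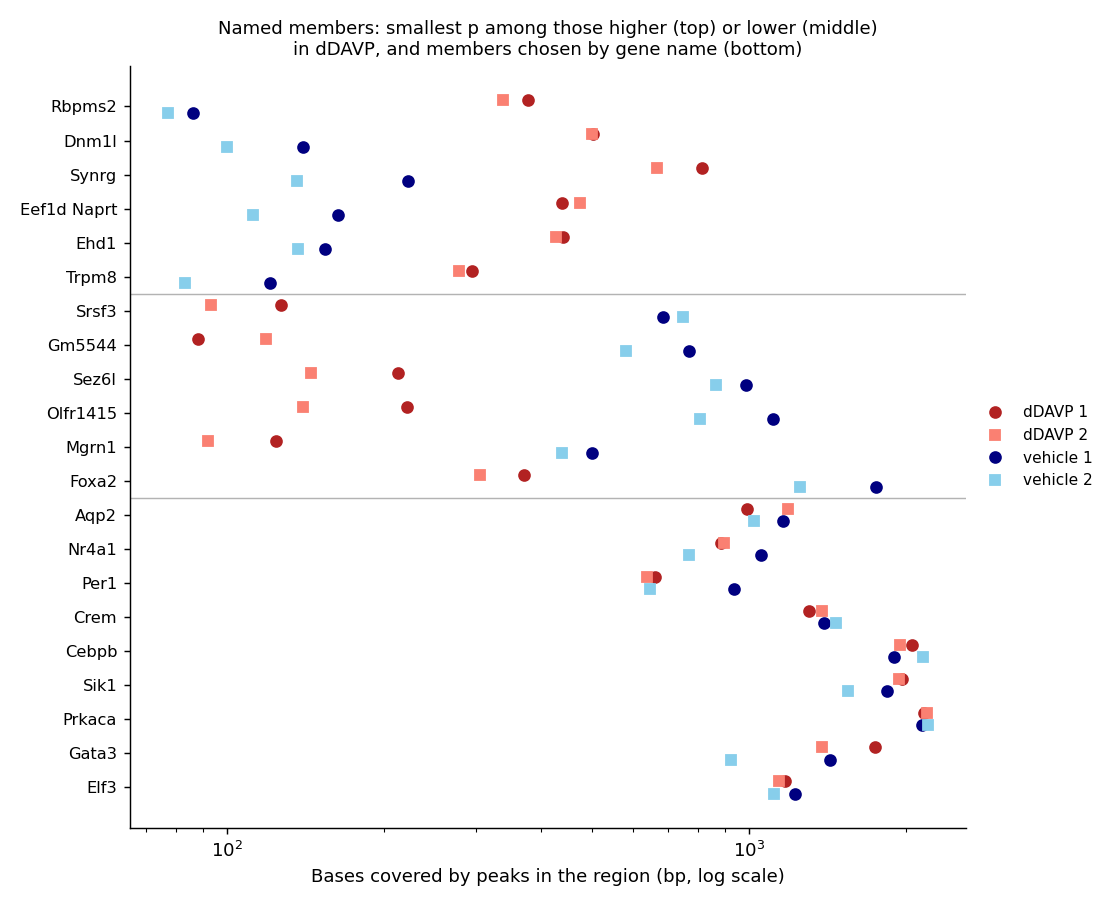
Covered bases (bp, log scale) in each library for the 6 members with the strongest limma statistic in each direction and for the members at genes chosen by name; red symbols are dDAVP libraries and blue symbols vehicle libraries, drawn below them, with replicate 2 as squares. The groups separate in the upper and middle blocks, where the narrower group lies between 77 and 371 bp, and overlap for most genes of the lower block.

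Members were spread unevenly over chromosomes, also among promoters of 1 CpG class. CpG-rich starts lay inside a member in 93.8% of cases on chromosome 12 and 93.4% on chromosome 19, against 81.2% on chromosome 4, 79.3% on chromosome 7 and 67.0% on the X chromosome. The median covered bases of members on X were 619 bp, against 870.5 to 971 bp on the autosomes. Chromosome Y had 1 member, with a median of 382.75 bp. Promoters of chromosome 18 were not analysed here.

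The limits of the rule cut through a continuous range of regions. The widest members by merged width were at Arhgef2 (2999 bp), at Cdc42se1 with Mllt11 (2995 bp) and at Il3ra (2983 bp), and the regions just over the limit were at Gadd45g (3010 bp), Tsc22d2 (3017 bp) and Nrp1 (3025 bp). In all, 80 gene-end regions with a peak in every library were 3000 bp or wider. At the edge of the window, the members at Lpar3, Actl11 and Adsl lay 1000, 999 and 999 bp from a gene end, and the regions at Ankib1, Vax1 and Nol12 lay 1001 bp away and were left out.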

How the data were processed

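ATAC-seq peak lists of 4 mpkCCD libraries (2 dDAVP, 2 vehicle) were used, 1 list per library. Per the submitters' processing notes, cutadapt, Bowtie2, SAMtools, Picard, bedtools and MACS2 were used with the build mm10; the sources used here give no version, role, threshold or read shift for any tool. The deposited files, as the authors made them, hold a chromosome, a start and an end per peak in 3 columns, with no height, so depth is unknown. A longer list can come from deeper sequencing and changes which regions are shared and how wide they are.

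Groups and replicate numbers came from the titles. Peaks overlapping by 1 bp or more were merged (Python 3.11.15, pandas 2.3.3), and coordinates are 1-based. Gene ends came from RefSeq on GRCm38.p6, the assembly named mm10, with strand and promoter sequence for 17492 of 21887 protein-coding genes (79.9%), 1 start per gene, within 10 bases of the outermost start in 63.0%. Differences between dDAVP and vehicle were tested with limma 3.58.1 on log2 covered bases of all 87922 shared regions under 3000 bp (quantile normalization, Benjamini-Hochberg, threshold 0.05), and single values with exact permutation or sign-flip tests (scipy 1.17.1). Merging and the limma step were tested on simulated data. The limma simulation gave every region the same spread and planted only large changes, so it does not show how small a difference could be called. Alternatives left out each library, changed the window, the width limit, the peaks, the normalization and the replicate block.

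The members and gene lists were chosen with earlier results of these data known. Genes named are the 8 widest and 5 narrowest members, the 6 with the strongest limma statistic in each direction among those whose groups did not overlap, the 5 widest with 2 or more starts, the 5 touching most genes, the 6 widest at far ends, the widest of each list, genes without a member, 12 genes chosen by name, and regions next to the limits; where a list is long, only some are printed. The binomial intervals are Clopper-Pearson and reflect counting error alone. Some chromosomes' promoters were not used here.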

Additional observations from a re-analysis of the deposited data

How the results depend on the processing

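No member was called by limma under any of the 11 alternatives to the main setting, with smallest adjusted p-values of 0.777 to 0.932; at an unadjusted p under 0.05 there were 230 to 543 members, against 319. The greater width of members over shared regions inside and outside genes kept its sign under every alternative run, from 377 to 539 bp over regions inside genes and from 393 to 553 bp over those outside. Leaving out 1 library gave differences of −112 to 116 peaks and −0.836 to 0.216 Mb between dDAVP and vehicle, against 12 peaks and −0.249 Mb; the signs changed without vehicle replicate 1, and the cause was not tested. The share of genes with a member was 69.5% with a window of 2.5 kb and 57.8% with peaks at least as wide as their library's median, against 64.0%, where the wider window and the fewer peaks act by construction, and leaving out a library gave 63.8% to 66.3%. The excess of CpG-rich promoters at starts inside members was 56.5 points when only the 150 bases before the start were read and 50.9 points when genes with a member at either end were counted, against 58.5 points. It was 63.7 points when starts in shared regions that are not members were left out and 58.3 to 58.7 points without 1 library, both alternatives chosen after seeing the data. The 12 members named for their difference between groups kept its sign in all 112 alternative values that could be computed. They were chosen from these same libraries as members whose groups did not overlap. The kept sign therefore follows largely from that choice and is no evidence of a treatment effect.

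Same-numbered libraries showed a correlation of 0.0965 between their deviations from the group means, and the labels tie nothing to the number. With the replicate block, limma called 0 members, and the differences stayed at 12 peaks and −0.249 Mb (exact sign-flip p = 1).

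Positions without heights limit these data: depth is unknown, a missing peak is a site not called, and 2 libraries against 2 cannot reach an exact p below 0.333.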
